A study of Mus musculus with 20 samples.

Results

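The change in gene expression between 8 and 10 h after heat shock was measured in whole testis of C57BL/6 mice. It rests on 4 of the 20 arrays of the series, taken by their labels of strain and time. These are the 2 arrays taken 10 h after heat and the 2 taken 8 h after it, with no unheated control in the difference. The comparison itself was chosen with earlier results of these data known. All mice were 8 weeks old. C57BL/6 and AKR/N are inbred strains, and each gave unheated controls and testes sampled 8, 10, 12 or 24 h after 15 min at 43 °C, with 2 arrays per strain and time. RNA was read on the Affymetrix Mouse Genome 430 2.0 chip, where a set of short probes measures each transcript. No label tells whether a group's 2 arrays are from different mice, and p-values therefore describe the spread of these samples alone, which can be technical. The 8 and 10 h groups were sampled at different times after heat, so time after heat and time of sampling cannot be told apart.

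The testis is held below body temperature, and spermatocytes and round spermatids are the germ cells known to be most sensitive to heat. Heat activates heat shock factor 1, which induces chaperones such as the inducible HSP70 proteins within minutes to hours. Later layers of the response include arrest of the cell cycle through p53 and p21, cytokine signalling through JAK kinases and STAT3, and repair by the supporting Sertoli cells. A whole testis mixes germ cells of all stages with Sertoli, Leydig, peritubular, blood and vessel cells, and in such a sample fewer cells of a type and less RNA per cell cannot be told apart.

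The spermatid markers Prm1 and Tnp1 had signals from 8847 to 12549 on the 4 arrays, as the label of testis would give, and Sycp3 of spermatocytes had signals from 1430 to 2710. Across the genes tested, the 2 arrays at 8 h correlated with r = 0.987 and the 2 at 10 h with r = 0.982, and arrays of different times with r from 0.971 to 0.975. These correlations run over genes, which are no independent replicates. RNA quality can be read from the 3'/5' ratio of control probe sets, which for beta-actin was 2.04 and 2.0 at 8 h and 2.45 and 2.37 at 10 h. For Gapdh it was 0.899 and 0.967 at 8 h and 1.11 and 1.33 at 10 h. Both ratios were higher on both 10 h arrays than on both 8 h arrays, and their part in the differences below was not tested. In AKR/N the actin ratio was 1.91 and 1.93 at 8 h and 1.87 and 1.99 at 10 h, so the 2 times overlapped. The Gapdh ratio there was 0.985 and 0.997 at 8 h and 1.07 and 1.08 at 10 h. It was thus higher on both 10 h arrays of AKR/N too, and its part was not tested.

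In C57BL/6, 1390 of 15762 genes tested differed between 10 and 8 h (8.82%; limma, adjusted p under 0.05), of which 767 rose (4.87%) and 623 fell (3.95%). The mitochondrial chaperonin genes Hspd1 and Hspe1, p53 targets, the receptor Tnfrsf12a and the signalling genes Stat3 and Jak1 were among those that rose. Genes of cell division, the respiratory chain and the ribosome were among those that fell. At least 2-fold changes were found in 123 of the risen and 47 of the fallen genes. The median log2 change was 0.68 among risen, −0.65 among fallen and 0.02 among all genes. An unadjusted p under 0.05 was reached by 3741 genes. A log2 change is the difference of mean log2(signal + 16), which understates the change of dim genes, and an error is its standard error (SE, n = 2 arrays per time). The calls lean on the spread shared by all 20 arrays: with the 4 arrays fitted alone, 0 genes were called (3466 at an unadjusted p under 0.05), and with the 10 C57BL/6 arrays, 624. Leaving out 1 array gave 71 calls without 8 h replicate 2, 221 without 10 h replicate 1, 365 without 10 h replicate 2 and 451 without 8 h replicate 1. All 1390 genes kept their sign without any 1 array, which says little, since they were called on these same arrays. The fits on 4 and on 10 arrays leave each difference unchanged, so no sign could turn there. Centring each array on its median gave 702 calls, 292 higher and 410 lower, which took the share of higher calls from 55.2 to 41.6%.

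**Figure D1:**
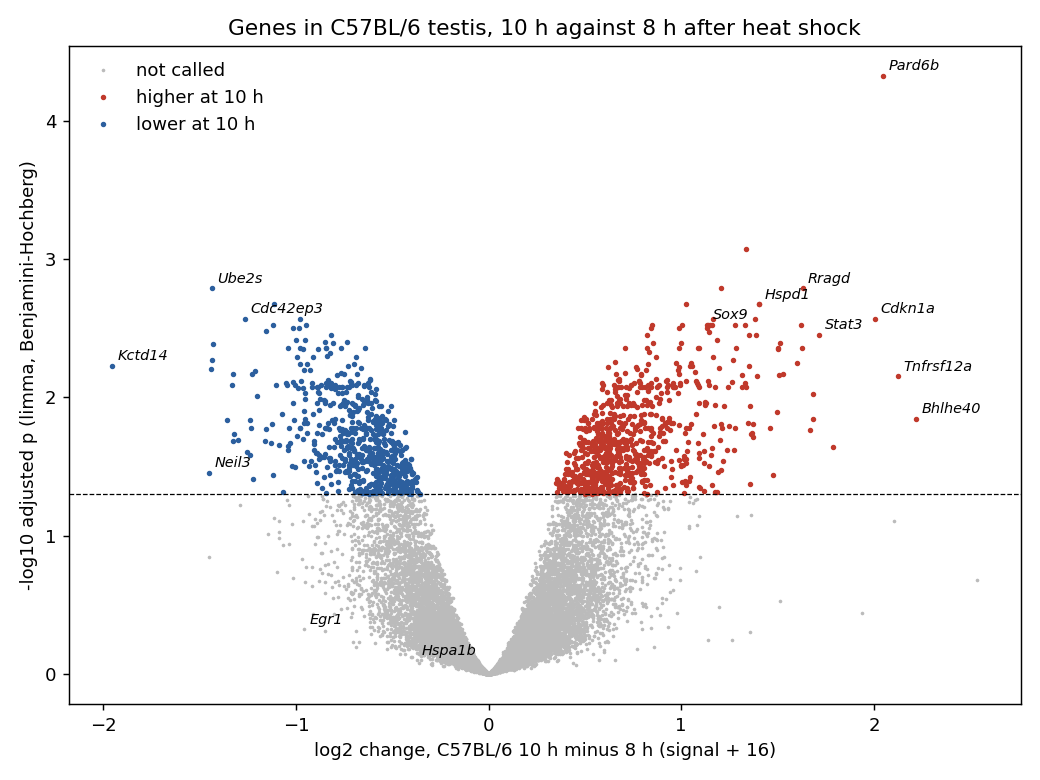
Each point is 1 of 15762 genes in C57BL/6 testis; the x axis is the log2 change of signal + 16 from 8 to 10 h and the y axis is −log10 of limma's adjusted p, with the dashed line at 0.05. The 767 red genes were higher and the 623 blue genes lower at 10 h. Pard6b stands highest, while Hspa1b and Egr1 lie among the genes not called.

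Both subunits of the mitochondrial chaperonin rose, while the classical inducible HSP70 genes were already high at 8 h and did not pass the test. Of 25 heat shock chaperones tested, 5 rose and 0 fell, against 4.87% of all genes higher, with a list median of 0.18 against 0.02 for all genes. Hspa9 and Trap1, other chaperones of mitochondria, changed by 0.18 and 0.05 and did not pass (adjusted p = 0.458 and 0.884). Hspd1, the HSP60 chaperonin of the mitochondrial matrix, had signals of 834 and 762 at 8 h and 2107 and 2169 at 10 h. Its log2 change was 1.41 ± 0.17 (adjusted p = 0.00211), and the control arrays had 324 and 328. Hspe1, the HSP10 lid of the same chaperonin, had signals of 1064 and 1077 at 8 h and 2242 and 2312 at 10 h (1.08 ± 0.19, adjusted p = 0.00766). For both genes the 10 h arrays lay well above the 8 h arrays.

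The start sites of Hspd1 and Hspe1 face away from each other across a short stretch on chromosome 1, which holds a heat shock element of 3 or more units. The stretch is shown because both genes share it and both rose. It spans chr1:55088029-55088106 of GRCm38.p6 (RefSeq), printed 5′ to 3′ on the plus strand for Hspe1 and on the minus strand for Hspd1, with the element in capitals.
Hspe1: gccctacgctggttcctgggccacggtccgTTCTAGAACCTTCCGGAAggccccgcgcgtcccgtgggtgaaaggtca
Hspd1: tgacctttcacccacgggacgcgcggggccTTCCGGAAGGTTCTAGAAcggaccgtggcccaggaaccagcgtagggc
The element begins 89 bases before the start of Hspe1 and 144 bases before that of Hspd1. Over 627 risen genes with a promoter in the RefSeq table (250 bases before to 50 after the start), 5 (0.8%) held such an element of 3 alternating GAA and TTC units on either strand, against 0.64% of all 12634 genes with a promoter. A match is a description of the letters and not of a bound site.

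Hspa8, the constitutive HSP70 of the cytosol, had signals of 2395 and 2566 at 8 h and 4590 and 4378 at 10 h (0.85 ± 0.11, adjusted p = 0.00299). The small heat shock proteins Hspb1 and Hspb8 rose by 0.65 ± 0.15 and 1.37 ± 0.31 (adjusted p = 0.0199 and 0.0193). Hsbp1, a small protein that binds heat shock factor 1 and restrains it, fell from 6624 and 6207 to 3657 and 3605 (−0.82 ± 0.12, adjusted p = 0.00351). Hspa1b, an inducible HSP70 gene, had signals of 58.2 and 39.1 in controls, 5309 and 5453 at 8 h and 3473 and 4959 at 10 h. Both 10 h arrays lay below both 8 h arrays, and the change of −0.37 ± 0.66 did not pass (adjusted p = 0.789). Its neighbour Hspa1a, a near-identical copy whose probes may not separate the pair, had 3467 and 3286 at 8 h and 1394 and 3070 at 10 h (−0.70 ± 0.67, adjusted p = 0.586). The calls of Hspd1, Hspa8 and Hsbp1 remained without any 1 of the 4 arrays. Without 8 h replicate 2, 3 of the 6 calls in this group ended, without 10 h replicate 1 or replicate 2 2 did each, and without 8 h replicate 1 1 did, with adjusted p up to 0.163. Of the 3 other probe sets of Hspa8, 2 passed at 1.22 and 1.01 (adjusted p = 0.0208 and 0.00854) and 1 changed by −0.97 (adjusted p = 0.275).

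**Figure D2:**
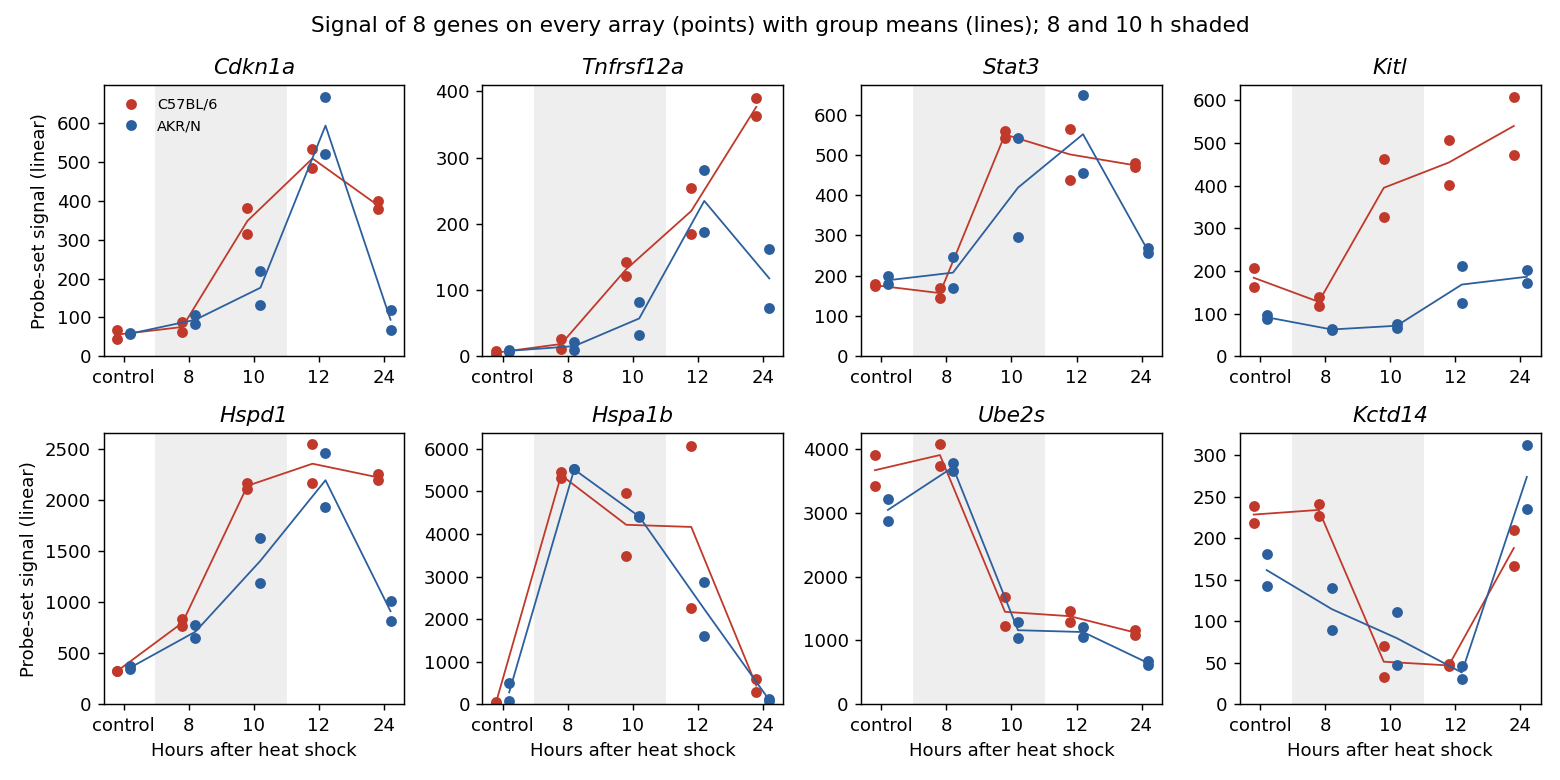
Probe-set signal on a linear axis for 8 genes at each time after heat, with 1 point per array, lines through the means of 2 arrays, red for C57BL/6 and blue for AKR/N; the 8 and 10 h groups are shaded. Between 8 and 10 h Cdkn1a, Tnfrsf12a, Stat3, Kitl and Hspd1 rise and Ube2s and Kctd14 fall in C57BL/6, while Hspa1b is already above 5300 at 8 h in that strain.

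Targets of p53, the transcription factor that halts the cell cycle after damage, included the cell cycle inhibitor gene Cdkn1a among the largest rises. Of 28 tested, 9 rose and 0 fell, against 4.87% of all genes higher, with a median change of 0.45 in C57BL/6 and 0.28 in AKR/N. Cdkn1a (probe set 1424638_at), which encodes p21, had signals of 66.3 and 45.1 in controls, 88.2 and 62.3 at 8 h, 383 and 315 at 10 h and 485 and 535 at 12 h. The 8 h arrays lay near the controls and the 10 h arrays far above them. Its log2 change from 8 to 10 h was 2.01 ± 0.26 (adjusted p = 0.0027). Ccng1, cyclin G1, had 91.1 and 95.8 at 8 h and 325 and 213 at 10 h (1.35 ± 0.22, adjusted p = 0.00593), and reached 801 and 792 at 24 h.

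Except for Plk2 and Btg2, the other p53 targets called changed less than Cdkn1a and Ccng1. Gadd45a, a sensor of growth arrest and damage, had signals of 25.3 and 24.9 at 8 h and 60.2 and 64.5 at 10 h (0.93 ± 0.17, adjusted p = 0.00811). Sesn1, a sestrin that restrains mTORC1, had 140 and 137 at 8 h and rose by 0.79 ± 0.14 (adjusted p = 0.00684). Pmaip1, the BH3-only killer protein Noxa, had 29.6 and 39.5 at 8 h and 91.4 and 59.6 at 10 h (0.84 ± 0.18, adjusted p = 0.0167). Mdm2, the ligase that degrades p53, rose by 0.66 ± 0.15 and Trp53inp1 by 0.84 ± 0.20 (adjusted p = 0.0171 and 0.0209). The list also holds Plk2 and Btg2, described with the immediate early genes. The call of Cdkn1a remained without any 1 array. Of the 9 calls, 7 ended without 8 h replicate 2, 5 without 10 h replicate 2, 4 without 10 h replicate 1 and 3 without 8 h replicate 1, with adjusted p up to 0.252. A further probe set of Ccng1 passed at 0.95 (adjusted p = 0.013), while another of Ccng1 changed by 0.42 and that of Cdkn1a by 0.46 (adjusted p = 0.374 and 0.353). For Sesn1, other probe sets changed by 0.70 (adjusted p = 0.0214, which passed), 0.60 and, in the opposite direction, −0.55 (adjusted p = 0.283 and 0.274). Those of Mdm2 and Trp53inp1 changed by 0.16 and 0.53 (adjusted p = 0.639 and 0.135).

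Among 41 immediate early genes, which respond to signals without new protein synthesis, 9 rose and 0 fell, against 4.87% of all genes higher, and the members that rose did not include the classical factors Fos, Jun, Egr1 and Atf3. The list median was 0.37 in C57BL/6 and 0.31 in AKR/N. Plk2, a polo-like kinase, had signals of 33.7 and 48.1 at 8 h and 114 and 153 at 10 h (1.39 ± 0.24, adjusted p = 0.00701). Rhob, a small GTPase of endosomes, had 263 and 284 at 8 h and 590 and 784 at 10 h (1.27 ± 0.22, adjusted p = 0.00777). Maff, a small Maf factor, had 21.8 and 30.7 at 8 h and 77.8 and 93.8 at 10 h (1.27 ± 0.31, adjusted p = 0.0239). In each of these the 2 times did not overlap, which held for 54.4% of all genes. Btg2, an antiproliferative gene, rose by 1.36 ± 0.38 (adjusted p = 0.0423), and Klf6, Dusp6, Hbegf, Jund and Klf10 rose by 0.91, 0.77, 0.75, 0.63 and 0.59.

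Of the classical factors, Egr1 was far above its controls at 8 h already. Egr1 had signals of 66.0 and 69.5 in controls, 1970 and 1637 at 8 h and 596 and 1410 at 10 h (−0.96 ± 0.72, adjusted p = 0.471). Fos had 170 and 151 at 8 h and 62.4 and 96.5 at 10 h (−0.91 ± 0.57, adjusted p = 0.367), and Jun 252 and 256 at 8 h and 126 and 228 at 10 h (−0.54 ± 0.33, adjusted p = 0.351). For all 3 the 10 h arrays lay below the 8 h arrays, with replicate 1 the lower. Atf3 had 96.9 and 122 at 8 h and 73.4 and 227 at 10 h (0.24 ± 0.61, adjusted p = 0.862), so its times overlapped. Of the 9 calls in the list, all 9 ended without 10 h replicate 2, 8 without 8 h replicate 2 and 7 without either of the other arrays, with adjusted p up to 0.302.

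The 5 risen genes of largest change that held the cyclic AMP response element TGACGTCA in the promoter window were Jak1, Plk2, Btg2, Rcan1 and Maff, and 3 of them are immediate early genes. These letters were found in 5.26% of risen, 3.9% of fallen and 3.12% of all genes with a promoter, on either strand. The stretches are shown because these members moved together, and the element is in capitals, with 30 bases of context on the side away from the start and up to 30 towards it (GRCm38.p6, RefSeq, each printed 5′ to 3′ on the strand of its gene).
Jak1: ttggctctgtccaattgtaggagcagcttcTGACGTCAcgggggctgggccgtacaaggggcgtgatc
Plk2: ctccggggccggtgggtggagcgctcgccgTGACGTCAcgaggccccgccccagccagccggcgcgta
Btg2: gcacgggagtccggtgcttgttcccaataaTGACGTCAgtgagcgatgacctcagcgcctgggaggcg
Rcan1: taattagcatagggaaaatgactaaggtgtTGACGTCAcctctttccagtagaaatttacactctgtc
Maff: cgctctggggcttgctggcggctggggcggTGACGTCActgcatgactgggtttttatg
They lie at chr4:101265287-101265354 (minus), chr13:110394952-110395019 (plus), chr1:134079284-134079351 (minus), chr16:92400216-92400283 (minus) and chr15:79347461-79347519 (plus). The element begins 101, 62, 166, 175 and 29 bases before the start in that order. Of the other motifs searched, AP-1 (TGACTCA) was in 5.26% of risen and 4.95% of all promoters and the E-box CACGTG in 14.83% of risen, 9.75% of fallen and 10.74% of all. A cyclic AMP response element and an E-box can share letters at their ends.

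Stat3 and Jak1, which relay signals of the interleukin-6 family and other cytokines, were among the 15 largest rises. No list of that route was tested. Stat3 (1426587_a_at) had signals of 179 and 174 in controls, 145 and 168 at 8 h, 559 and 543 at 10 h and 438 and 564 at 12 h. Its change from 8 to 10 h was 1.72 ± 0.25 (adjusted p = 0.00351). Jak1 had 189 and 143 at 8 h and 572 and 492 at 10 h (1.60 ± 0.26, adjusted p = 0.0056), and Jak2 rose by 1.0 ± 0.26 (adjusted p = 0.0309). Osmr, the oncostatin M receptor, had 25.6 and 26.0 at 8 h and 81.4 and 85.2 at 10 h (1.25 ± 0.27, adjusted p = 0.0162), and Il6st, the shared receptor subunit of the family, rose by 0.83 ± 0.16 (adjusted p = 0.00896). The feedback inhibitor Socs3 had 145 and 145 at 8 h and 20.9 and 77.7 at 10 h, a change of −1.45 ± 0.58 that did not pass (adjusted p = 0.142), while another of its probe sets passed at −1.66 (adjusted p = 0.0293) and one more changed by −0.85 (adjusted p = 0.371). Jak2, Osmr, Il6st and Socs3 were chosen after their values were seen. Other probe sets of Osmr and Jak2 changed by −0.13 and 0.28, and those of Il6st by 0.92, 0.34 and 0.21. Of these, only that of Il6st at 0.92 passed.

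Of 25 NF-kappaB and inflammatory genes, 2 rose and 0 fell, against 4.87% of all genes higher. The calls are few, and the shares were not compared by a test. Csf1, the macrophage growth factor, had signals of 25.5 and 7.56 at 8 h and 82.9 and 63.0 at 10 h (1.5 ± 0.31, adjusted p = 0.0128). Nfkbia, the NF-kappaB inhibitor, had 876 and 755 in controls, 318 and 377 at 8 h and 1115 and 867 at 10 h (1.46 ± 0.32, adjusted p = 0.0167), so the 8 h arrays were the low ones. Of 18 interferon-stimulated genes 3 rose and 0 fell, beside the same 4.87%, with a median of 0.17. They were the antiviral genes Rsad2, Oasl2 and Usp18, with changes of 1.16, 0.96 and 0.71 (adjusted p = 0.0233, 0.0432 and 0.0361). Usp18 had signals of 11 and 9.56 at 8 h, below the filter on dim genes at a signal of 17.5. Other probe sets of Csf1 changed by −0.14, −0.015 and 1.02 and those of Rsad2 by 0.03 and 0.53, none called. The call of Stat3 remained without any 1 array, while of 9 calls here other than Il6st 8 ended without 8 h replicate 2, 7 without 10 h replicate 1, 5 without 8 h replicate 1 and 4 without 10 h replicate 2 (adjusted p up to 0.321). Another probe set of Stat3 passed at 1.31 (adjusted p = 0.0125), while its other two changed by 0.38 and −0.01 and those of Jak1 by 0.96 and 0.46 (adjusted p = 0.0513 and 0.34), which did not pass.

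Bhlhe40, a transcriptional repressor linked to the circadian clock, had signals of 4.45 and 17.4 at 8 h and 70.4 and 155 at 10 h (2.22 ± 0.46, adjusted p = 0.0142). Controls had 25.4 and 5.14, so the gene was dim before 10 h, and the size of its rise depended on the pseudocount, at 3.4 with 1 and 1.2 with 64. Of 767 risen genes, 60 had an 8 h mean below the filter signal. Tnfrsf12a (1418572_x_at), the receptor for the cytokine TWEAK, had 11.5 and 25.4 at 8 h, 142 and 121 at 10 h and 363 and 391 at 24 h (8 to 10 h, 2.12 ± 0.36, adjusted p = 0.007).

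Pard6b (1423174_a_at), a polarity protein that partners atypical protein kinase C, had the smallest adjusted p of all genes. Its signals were 25.6 and 33.9 in controls, 25.1 and 17.9 at 8 h, 140 and 137 at 10 h and 163 and 166 at 12 h (2.05 ± 0.15, adjusted p = 4.75e-05). Rragd, a Rag GTPase that relays amino acid supply to mTORC1, had 70.2 and 54.9 at 8 h and 237 and 215 at 10 h (1.63 ± 0.18, adjusted p = 0.00162). Map3k21, a kinase upstream of JNK, had 50.7 and 31.4 at 8 h and 134 and 183 at 10 h (1.62 ± 0.22, adjusted p = 0.00299). In these 3 genes the 10 h arrays were all above 130 and the 8 h arrays all below 71. Another probe set of Pard6b passed at 1.81, while those of Rragd and Map3k21 changed by 0.21 and 0.57 and did not pass.

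The zinc exporter Slc30a1 had signals of 117 and 154 at 8 h and 577 and 376 at 10 h (1.68 ± 0.35, adjusted p = 0.0142). Slc30a4, another zinc transporter, rose by 1.51 ± 0.26 (adjusted p = 0.00685) and was chosen after its value was seen. Tnks2, a tankyrase, had 173 and 142 at 8 h and 657 and 408 at 10 h (1.63 ± 0.25, adjusted p = 0.00437). Edn1, the vasoconstrictor endothelin 1, rose by 1.67 ± 0.37 and the scaffold gene Cnksr3 by 1.53 ± 0.26 (adjusted p = 0.0173 and 0.00673). Zfp703, a zinc finger factor, rose by 1.51 ± 0.23 (adjusted p = 0.00402). Other probe sets of Zfp703 and Slc30a1 changed by −0.08 and 0.43, and those of Tnks2 by 0.81 and 0.38. None of these passed. Clcn5, a chloride-proton exchanger, had 311 and 245 in controls, 48.9 and 63.1 at 8 h and 313 and 169 at 10 h, so it came back to about its control signals (1.79 ± 0.43, adjusted p = 0.0229). Its 3 other probe sets changed by −0.05 to 0.60 and did not pass. G530011O06Rik, with 15.1 and 25.5 at 8 h and 110 and 90.0 at 10 h, completed the 15 largest rises.

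Of these 15 calls 8 ended without 8 h replicate 2, 4 without 8 h replicate 1, 4 without 10 h replicate 1 and 3 without 10 h replicate 2, with adjusted p up to 0.158. Pard6b, Cdkn1a, Stat3, Rragd, Map3k21 and Zfp703 were called without any 1 array.

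A low signal at 8 h that returned at 10 h, as in Clcn5 and Nfkbia, was also seen in the nuclear noncoding RNAs Neat1 and Malat1, chosen after their values were seen. Malat1 had signals of 148 and 145 in controls, 68.3 and 67.5 at 8 h and 208 and 135 at 10 h (1.13 ± 0.22, adjusted p = 0.011). Neat1 had 158 and 140 in controls, 81.7 and 82.2 at 8 h and 330 and 168 at 10 h (1.36 ± 0.31, adjusted p = 0.0184). The 6 other probe sets of Malat1 changed by −0.14 to 0.77 and that of Neat1 by −0.43, none of them called. Cited2, a coactivator that binds CBP and p300, had 618 and 883 at 10 h against 273 and 274 in controls (1.5 ± 0.23, adjusted p = 0.00443). Tead1, the DNA-binding partner of YAP, rose by 1.28 ± 0.20, Smad3 of the TGF-beta route by 1.33 ± 0.24 and the calcineurin regulator Rcan1 by 1.36 ± 0.27 (adjusted p = 0.00437, 0.0078 and 0.0116). Another probe set of Tead1 changed in the opposite direction, by −0.45, that of Smad3 by 0.35 and that of Rcan1 by 0.52, none called. The factors Id2 and Hes1 rose by 1.16 and 1.12 (adjusted p = 0.0431 and 0.0471), while another probe set of Id2 changed by 0.41 and did not pass. These genes too were chosen after their values were seen. In a set of 15 calls that holds these 8 genes with Slc30a4, Nr1d2, Cyp51, Bcl2l14, Bad, Vcp and Psmb5, 14 ended without 8 h replicate 2, 12 without 10 h replicate 1, 9 without 10 h replicate 2 and 8 without 8 h replicate 1 (adjusted p up to 0.281).

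The largest fall was that of Kctd14, with signals of 238 and 218 in controls, 241 and 227 at 8 h, 32.4 and 70.0 at 10 h, 47.9 and 45.6 at 12 h and 209 and 167 at 24 h. The 24 h arrays were thus again near the controls. The change from 8 to 10 h was −1.95 ± 0.32 (adjusted p = 0.0059), and of the 3 other probe sets of Kctd14, 2 passed at −1.13 and −1.07 (adjusted p = 0.0181 and 0.0198) and 1 changed by −0.93 (adjusted p = 0.161). Ube2s (1416726_s_at), which extends ubiquitin chains made by the anaphase-promoting complex, had 3422 and 3913 in controls, 4078 and 3733 at 8 h and 1678 and 1220 at 10 h (−1.44 ± 0.16, adjusted p = 0.00162). Its signals at 12 and 24 h stayed between 1082 and 1468. Cdc42ep3, an effector of the GTPase Cdc42, had 2234 and 2653 at 8 h, 1041 and 967 at 10 h and 519 and 517 at 24 h (8 to 10 h, −1.27 ± 0.16, adjusted p = 0.0027).

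Neil3, a DNA glycosylase, had signals of 150 and 163 at 8 h and 29.6 and 70.7 at 10 h (−1.45 ± 0.39, adjusted p = 0.0349). 4932702P03Rik had 457 and 552 at 8 h and 172 and 181 at 10 h (−1.43 ± 0.21, adjusted p = 0.00411). Rnf112, Zfp688, Zfp423 and Arhgef15 fell by 1.44, 1.44, 1.33 and 1.33 on the log2 scale (adjusted p from 0.00536 to 0.00807). Zfp423 was low at 10 h in particular, with 32 and 21.1, and had 66.4 and 85.9 at 12 h. The mitochondrial methionyl-tRNA synthetase Mars2, the repressor Gfi1, the tubulin glutamylase Ttll1, Them6 and 4930556A17Rik fell by 1.32, 1.32, 1.25, 1.24 and 1.36. Clec10a, a lectin of macrophages, had 42.6 and 29.5 at 8 h and 6.97 and 3.11 at 10 h, so its level at 10 h is not resolved (−1.30 ± 0.30, adjusted p = 0.0204). In all, 27 of 623 fallen genes had a 10 h mean under the filter signal. Ube2s and Cdc42ep3 were called without any 1 array; of the 15 calls, 13 ended without 8 h replicate 2, 8 without 10 h replicate 1, 7 without 8 h replicate 1 and 6 without 10 h replicate 2 (adjusted p up to 0.239). Other probe sets of Ube2s and Mars2 changed by 0.16 and −0.06.

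Of 25 genes of cell division 3 fell and 0 rose, against 3.95% of all genes lower, with a list median of −0.30 in C57BL/6 and −0.10 in AKR/N. Cdk1, the kinase that drives entry into mitosis and meiosis, had signals of 459 and 466 at 8 h and 269 and 252 at 10 h (−0.79 ± 0.21, adjusted p = 0.0341). Aurkc, the Aurora kinase of meiosis, and Birc5, survivin, fell by 0.54 ± 0.15 and 0.53 ± 0.13 (adjusted p = 0.035 and 0.0287). Cks2, a partner of Cdk1 needed in meiosis, had 3121 and 3028 at 8 h and 1628 and 1345 at 10 h (−1.05 ± 0.19, adjusted p = 0.00807).

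A few genes of chromosome condensation and DNA replication were picked after their values were seen, so they do not stand for those processes. Smc4, a condensin subunit, had signals of 2844 and 2875 at 8 h and 1478 and 1392 at 10 h (−0.99 ± 0.18, adjusted p = 0.00849). The GINS subunits Gins1 and Gins2 of the replicative helicase fell by 0.96 ± 0.16 and 0.80 ± 0.21 (adjusted p = 0.00635 and 0.0308). Gmnn, geminin, which blocks licensing of replication, fell by 0.80 ± 0.18 (adjusted p = 0.0201). Mcm5, another subunit of that helicase, was called in the other direction, with a rise of 0.62. Other probe sets of Smc4 changed by −0.37 and −0.15 and did not pass. Of the 8 falls called in these 2 paragraphs, all 8 calls ended without 8 h replicate 2, 6 without 10 h replicate 1, 6 without 10 h replicate 2 and 3 without 8 h replicate 1 (adjusted p up to 0.234).

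The respiratory chain, the series of mitochondrial complexes that feeds ATP synthesis, had 8 of 32 tested nuclear genes lower at 10 h and 0 higher, against 3.95% of all genes lower. The list median was −0.29 in C57BL/6 and −0.24 in AKR/N. Ndufb3 of complex I had signals of 835 and 839 at 8 h and 529 and 427 at 10 h (−0.80 ± 0.15, adjusted p = 0.00874). Sdhd of complex II had 430 and 527 at 8 h and 311 and 285 at 10 h (−0.65 ± 0.14, adjusted p = 0.0168). Cox4i1 of complex IV had 4559 and 4317 at 8 h and 3277 and 3423 at 10 h (−0.40 ± 0.10, adjusted p = 0.0278). Ndufs4, Cox6c, Ndufa2, Ndufb5 and Ndufa1 fell by 0.47, 0.44, 0.43, 0.41 and 0.41. These falls were small, and each had 10 h arrays below both 8 h arrays. Arrays of these times also did not overlap for 54.4% of all genes, so this adds little to the calls.

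Of 23 ribosomal protein genes 4 fell and 0 rose, against 3.95% of all genes lower, with a median of −0.23 in C57BL/6 and −0.27 in AKR/N. Rpl27 had signals of 3876 and 3709 at 8 h and 2463 and 2388 at 10 h (−0.64 ± 0.10, adjusted p = 0.00437). Rps10, Rps18 and Rpl11 fell by 0.43, 0.40 and 0.40 (adjusted p = 0.0227, 0.0339 and 0.0496). Ribosomal protein genes have many near-identical pseudogene copies, so their probe sets may read more than 1 gene. Rpl27 was called without any 1 array, and of the 12 calls of both lists 11 ended without 8 h replicate 2, 11 without 10 h replicate 2, 10 without 10 h replicate 1 and 9 without 8 h replicate 1 (adjusted p up to 0.269). With each array centred on its median, the calls of Ndufs4, Cox4i1, Ndufb5, Ndufa1, Ndufa2 and Cox6c and of Rps10, Rps18 and Rpl11 ended too, with no sign turned.

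**Figure D3:**
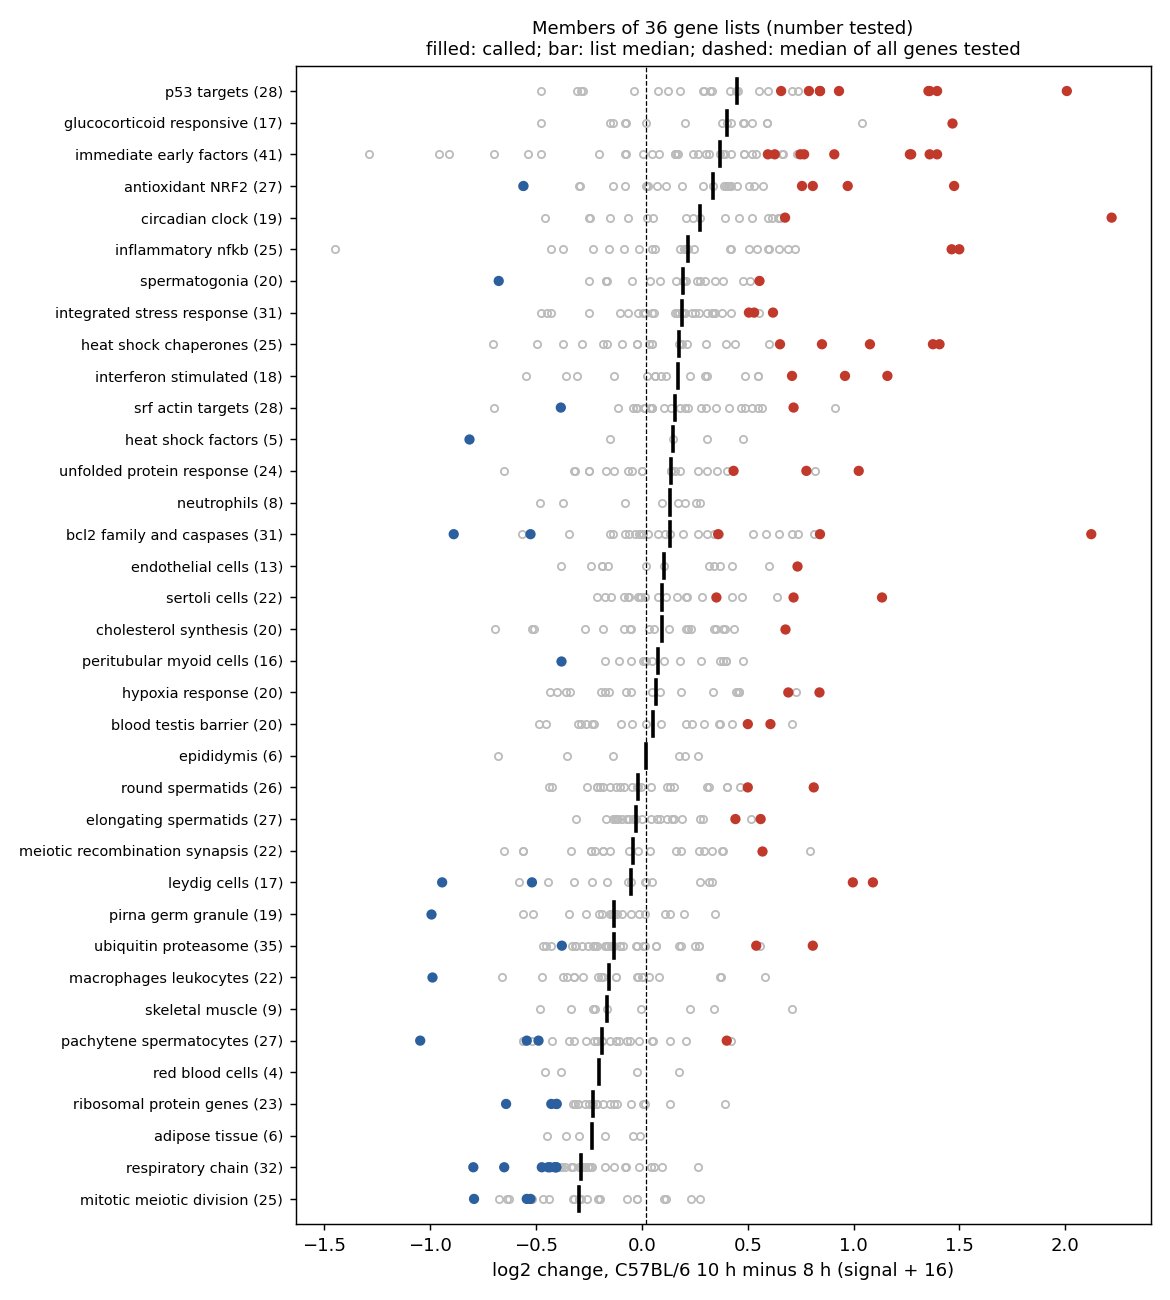
Each row is 1 of 36 gene lists with the number of members tested, ordered by median; points are members' log2 change from 8 to 10 h in C57BL/6, filled red or blue where called, and black bars are list medians beside the dashed median of all genes at 0.02. The p53 targets have the highest median at 0.45 and the list of cell division the lowest at −0.30, and every list spans genes that were not called.

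Of 27 antioxidant genes under the factor NRF2, 4 rose and 1 fell, against 4.87% and 3.95% of all genes, with a median of 0.34. Hmox1, heme oxygenase 1, had signals of 5.65 and 29.8 in controls, 106 and 68.0 at 8 h and 294 and 238 at 10 h (1.47 ± 0.40, adjusted p = 0.0365). Txnrd1, thioredoxin reductase, had 208 and 221 at 8 h and 476 and 400 at 10 h (0.97 ± 0.16, adjusted p = 0.00562). The autophagy receptor Sqstm1 and Nfe2l2, which encodes NRF2 itself, rose by 0.81 ± 0.16 and 0.76 ± 0.13 (adjusted p = 0.0105 and 0.0078). For Txnrd1 and Nfe2l2, another probe set changed by 0.11 and 0.15 and did not pass. Sod2, the mitochondrial superoxide dismutase, fell by 0.56 ± 0.15 (adjusted p = 0.0374), and its other probe sets changed by −0.51 (adjusted p = 0.0251), −0.13 and, in the opposite direction, 0.88 (adjusted p = 0.0446), so its direction is not settled.

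Of 24 genes of the unfolded protein response, which senses misfolding in the endoplasmic reticulum, 3 rose and 0 fell, against 4.87% of all genes higher, with a median of 0.14 in C57BL/6 and −0.05 in AKR/N. Xbp1, its central transcription factor, had signals of 193 and 192 at 8 h and 469 and 353 at 10 h (1.02 ± 0.18, adjusted p = 0.00756). Derl1 and Edem1, which clear misfolded proteins from that compartment, rose by 0.78 and 0.43 (adjusted p = 0.0334 and 0.0475). For Xbp1, other probe sets changed by 0.73, 0.45 and −0.17, and for Derl1 by 0.53, 0.36 and −0.01, none called. The chaperone Hspa5 changed by 0.16 ± 0.13 (adjusted p = 0.53). Of 31 genes of the integrated stress response, 3 rose and 0 fell, against 4.87% of all genes higher, with a median of 0.19. The calls are few, and the shares were not compared by a test. Those that rose were Asns for asparagine synthesis, the amino acid transporter chain Slc3a2 and the factor Atf5, with changes of 0.51, 0.62 and 0.53. Atf4 and Ddit3 of the same response changed by 0.42 and −0.43 (adjusted p = 0.184 and 0.076), and other probe sets of Atf4 by 0.81 and 0.05 (adjusted p = 0.0356, which passed, and 0.952) and of Ddit3 by 0.05. Of 20 hypoxia genes P4ha1 and Pgk1 rose by 0.84 and 0.69, beside the same 4.87%. For P4ha1 another probe set changed by −0.23, and for Pgk1 others by 0.28 and 0.94, none called. Averaging all probe sets of a gene ended the call of P4ha1 (0.31, adjusted p = 0.259). All 13 calls in these lists ended without 10 h replicate 1, 12 without 8 h replicate 2, 9 without 8 h replicate 1 and 8 without 10 h replicate 2 (adjusted p up to 0.251).

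Other stress lists held few calls, to be read against 4.87% of all genes higher and 3.95% lower. In the list of BCL2 family members, caspases and death receptors, 3 of 31 rose (Tnfrsf12a, Pmaip1 and Bcl2l14) and 2 fell (Bad and Birc5). The proapoptotic Bad had signals of 353 and 358 at 8 h and 200 and 170 at 10 h (−0.89 ± 0.20, adjusted p = 0.0182). Among 35 genes of ubiquitin and the proteasome, Sqstm1 and the segregase Vcp rose and the catalytic subunit Psmb5 fell. In the list of 19 clock genes, which follow the time of day, Bhlhe40 and Nr1d2 rose, with a median of 0.28. Nfkbia was the only gene called among 17 glucocorticoid-responsive genes, whose median was 0.40 in C57BL/6 and 0.07 in AKR/N. Cyp51 rose by 0.68 ± 0.14 and was the only gene called among 20 of cholesterol synthesis. Its other probe sets changed by −0.03 and −0.19 and did not pass, so the rise rests on 1 probe set.

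Genes of Sertoli cells, which nurse the germ cells, were higher at 10 h in 3 of 22 tested and lower in 0, against 4.87% of all genes higher, with a median of 0.10. Sox9, the factor that specifies the lineage, had signals of 84.0 and 103 in controls, 73.9 and 60.9 at 8 h and 176 and 158 at 10 h (1.13 ± 0.15, adjusted p = 0.00299). Vim, vimentin, had 625 and 618 at 8 h, 1085 and 980 at 10 h and 2450 and 2401 at 24 h (8 to 10 h, 0.72 ± 0.14, adjusted p = 0.00961). Clu, clusterin, rose by 0.35 ± 0.10 (adjusted p = 0.0414). Kitl, the ligand that Sertoli cells offer to the Kit receptor of spermatogonia, had 161 and 207 in controls, 117 and 138 at 8 h and 463 and 327 at 10 h (1.5 ± 0.23, adjusted p = 0.00437), and was chosen after its value was seen. Ctnna1 and Ctnnb1, the catenins of adherens junctions, rose by 0.61 and 0.50 and were the 2 genes called among 20 of the blood-testis barrier. The summed signal of the 22 Sertoli markers was 18766 to 19480 at 8 h and 20793 to 20967 at 10 h, which includes the members named here.

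Of 17 Leydig cell genes 2 rose and 2 fell, against 4.87% and 3.95% of all genes. Star, which carries cholesterol into mitochondria for steroid synthesis, had signals of 87.0 and 75.7 in controls, 234 and 252 at 8 h and 602 and 477 at 10 h (1.09 ± 0.22, adjusted p = 0.011). Nr2f2, a nuclear receptor of Leydig and other stromal cells, had 30.8 and 32.1 at 8 h and 81.9 and 75.5 at 10 h (1.0 ± 0.15, adjusted p = 0.00402). Hsd3b1, a steroid dehydrogenase, fell from 560 and 422 to 184 and 326 (−0.94 ± 0.21, adjusted p = 0.0181), and Fdx1, which passes electrons to steroid hydroxylases, fell by 0.52 ± 0.15 (adjusted p = 0.0432). The other 13 of 17 did not pass, and the summed signal of the list was 11151 to 12076 at 8 h and 10727 to 11115 at 10 h. The complement gene C1qa was the only one called among 22 of macrophages and leukocytes, with 63.8 and 94.9 at 8 h and 34.9 and 28.0 at 10 h (−0.99 ± 0.23, adjusted p = 0.019). The sum of that list was 4349 to 4729 at 8 h and 4179 to 4460 at 10 h. Kdr of endothelial cells rose by 0.73 and Myl9 of muscle-like cells fell by 0.38, each the only call of its list. No neutrophil, red blood cell, epididymis, adipose or skeletal muscle marker was called, of 8, 4, 6, 6 and 9 tested. Sox9, Nr2f2 and Kitl were called without any 1 array, and of 13 somatic calls 10 ended without 8 h replicate 2, 10 without 10 h replicate 1, 8 without 8 h replicate 1 and 7 without 10 h replicate 2 (adjusted p up to 0.257). Another probe set each of Sox9 and Star passed at 1.13 and 1.11 (adjusted p = 0.0367 and 0.0339), and the remaining one of each changed by 0.14 and 0.36. The 3 others of Kitl changed by 0.85, 0.40 and −0.09 and 4 of Nr2f2 by −0.22 to 0.44, none called.

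Germ cell markers held few calls, to be read against 4.87% of all genes higher and 3.95% lower, and the part of a shift in cell numbers in the results was not tested. The summed signal of 27 markers of pachytene spermatocytes was 60846 to 60922 at 8 h and 53733 to 54015 at 10 h, and it was 58876 to 60778 in controls. Of these, 3 fell (Cks2, Aurkc and Ovol1) and Taf7l rose, with a median of −0.19. Round spermatid markers had 2 of 26 higher, the sperm calcium channel Catsper1 by 0.81 ± 0.15 and the egg-binding protein Izumo1 by 0.50 ± 0.13, and elongating spermatid markers 2 of 27, Fscn3 and Spata18. The sums of these 2 lists overlapped between 8 and 10 h. Among 20 spermatogonial markers Stra8, which licenses meiosis, rose by 0.56 ± 0.14 and Id4 of the stem cells fell by 0.68 ± 0.18, while 2 other probe sets of Id4 changed by −0.26 and 0.21. Pld6, a mitochondrial nuclease of the piRNA pathway, had signals of 491 and 444 at 8 h and 230 and 223 at 10 h (−0.99 ± 0.16, adjusted p = 0.0051). Tex11 rose by 0.56. Pld6 was called without any 1 array; of 10 germ cell calls other than Cks2 and Aurkc, 9 ended without 8 h replicate 2, 9 without 10 h replicate 2 and 8 without either of the others (adjusted p up to 0.227).

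AKR/N gave the same interval in 4 arrays that share none with the C57BL/6 comparison. There, 1 gene was called between 10 and 8 h (0.00634%; limma, with 2205 at an unadjusted p under 0.05), and limma with an intensity trend called 259. The called gene was Ube2s, which fell from 3777 and 3652 to 1034 and 1286 (−1.67 ± 0.16, adjusted p = 0.0013). Of the 767 genes risen in C57BL/6, 683 (89.05%) were higher at 10 h in AKR/N too, with a median of 0.28, against 53.72% of all genes. Of the 623 fallen genes, 37 (5.94%) were higher and the median was −0.34. The size was larger in C57BL/6 for 754 of the risen and 594 of the fallen genes, and since the genes were chosen in C57BL/6, that choice favours larger values there.

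The difference between the strains was itself tested, and passed for 2 genes (0.0127%; 1052 at an unadjusted p under 0.05). Pard6b had signals of 33.8 and 45.4 at 8 h and 46.7 and 47.7 at 10 h in AKR/N, so the 10 h arrays of that strain stayed far below the 140 and 137 of C57BL/6. The C57BL/6 change exceeded the AKR/N change by 1.85 (adjusted p = 0.0108). In AKR/N it reached 138 and 107 at 12 h. The difference of 1700104B16Rik is no result about AKR/N, where the gene was too dim to fall. Its C57BL/6 signals were 949 and 1032 at 8 h and 489 and 500 at 10 h, and those of AKR/N were 11.5 to 22.6, at or near the filter signal, so no fall could be read there (difference −1.32, adjusted p = 0.031). Both calls depended on single arrays: the Pard6b difference had an adjusted p of 0.0824 to 0.111 in 6 of 8 fits without 1 array, and that of 1700104B16Rik 0.0713 to 0.276 in all 8. Rragd had a difference of 1.63 that did not pass (adjusted p = 0.0918), with AKR/N signals of 67.4 and 86.1 at 8 h, 69.3 and 83.4 at 10 h and 201 and 151 at 12 h. Kitl, at 64.4 and 60.9 at 8 h and 67.2 and 75.7 at 10 h in AKR/N, also did not pass (1.35, adjusted p = 0.428). For the other genes called in C57BL/6, no difference between strains was established, which does not show that the strains act alike.

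**Figure D4:**
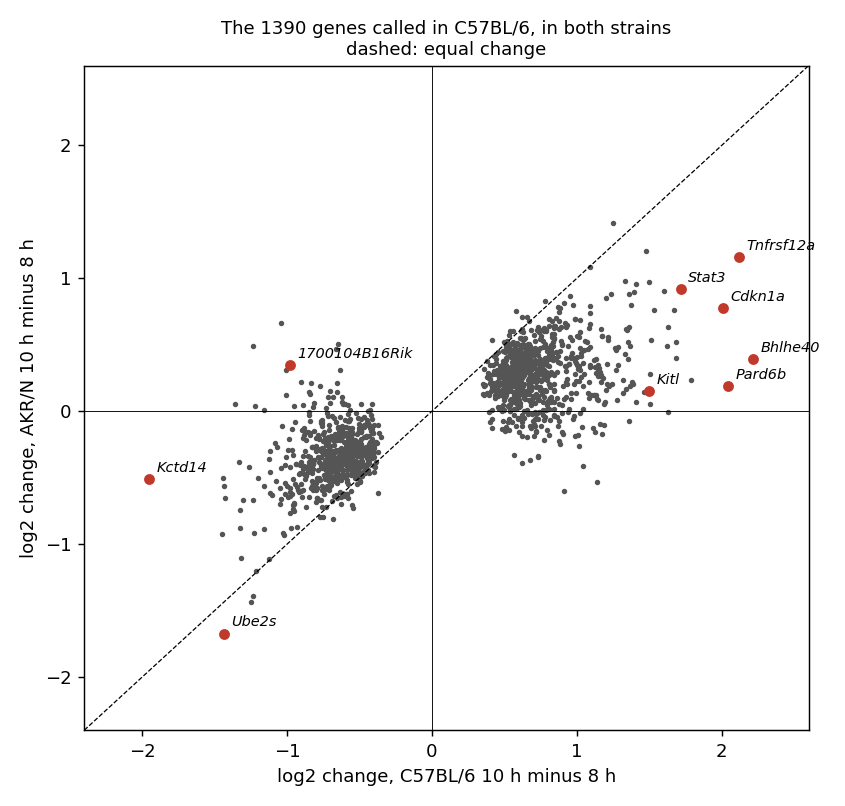
Each point is 1 of the 1390 genes called in C57BL/6, with the log2 change from 8 to 10 h in C57BL/6 on the x axis and in AKR/N on the y axis; the dashed line marks equal change and 9 genes are labelled in red. Most points lie on the same side of 0 in both strains and nearer to 0 in AKR/N, and Ube2s lies below the line at −1.44 and −1.67.

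Later arrays showed where the called genes went. Between 10 and 12 h in C57BL/6, 0 genes were called (limma, with 1429 at an unadjusted p under 0.05 and 3 called with an intensity trend). The 3 further comparisons were added after the data were seen, and none shares an array with the difference between 10 and 8 h in C57BL/6. Each gene has the same spread in every comparison, since all come from the fit to all arrays. A small spread eases a call between 10 and 8 h and in these comparisons alike. It can thus raise the shares of called genes below, and how far was not tested. Signs do not use the spread. At 12 h against control in C57BL/6, 96.09% of risen, 2.73% of fallen and 55.54% of all genes were higher. In AKR/N at 12 against 8 h these were 95.18, 4.17 and 55.47%. The 3 comparisons called 3010 genes at 12 h against control in C57BL/6 (19.1%), 1387 at 12 h against 8 h in AKR/N (8.8%) and 1515 at 24 h against 12 h in C57BL/6 (9.61%). Of the 767 risen genes, 495 (64.5%) were called higher at 12 h than in unheated C57BL/6 testis, against 9.71% of all genes, and of the 623 fallen genes 462 (74.2%) were called lower, against 9.38%. In AKR/N, 307 of the risen genes were called higher at 12 than at 8 h, which is 40% of them and 39.1% of the genes called higher there, against 4.99% of all genes. Likewise 263 of the fallen genes were called lower, which is 42.2% of them and 43.8% of the genes called lower, against 3.81%. The actin 3'/5' ratio in AKR/N was 2.74 and 2.62 at 12 h against 1.91 and 1.93 at 8 h. That of Gapdh was 1.28 and 1.29 against 0.985 and 0.997. Both were higher at the later time, as in C57BL/6 from 8 to 10 h. In C57BL/6 the actin ratio was 2.522 and 3.573 at 12 h against 2.141 and 2.455 in controls. That of Gapdh was 1.252 and 1.799 against 1.035 and 1.079, so both were higher at 12 h. C57BL/6 12 h replicate 2 had the highest actin and Gapdh ratios of the series. The part of these ratios in the shares was not tested. With each array centred on its median, the calls split into 724 higher and 1677 lower at 12 h against control in C57BL/6 (30.2% higher, against 50.9% as deposited). For AKR/N at 12 against 8 h the split was 314 and 546 (36.5% higher, against 56.7%). The count for AKR/N at 12 against 8 h was 1387 and fell to 157 without 8 h replicate 1, 160 without 12 h replicate 1 and 246 without 8 h replicate 2.

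The calls from 12 to 24 h in C57BL/6 lean on the same spread. In that interval 84 of the risen genes rose further and 14 fell back, while 139 of the fallen genes fell further and 14 rose. By sign alone, 71.97% of risen, 19.26% of fallen and 50.79% of all genes were higher at 24 h. Over all genes, 886 were called higher (5.62%) and 629 lower (3.99%) in that interval, and its count of 1515 fell to 206 without 24 h replicate 1, 350 without 12 h replicate 2 and 640 without 24 h replicate 2. The count of 3010 at 12 h against controls fell to 1194 and 1422 without control replicates 2 and 1 and to 1716 without 12 h replicate 2.

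**Figure D5:**
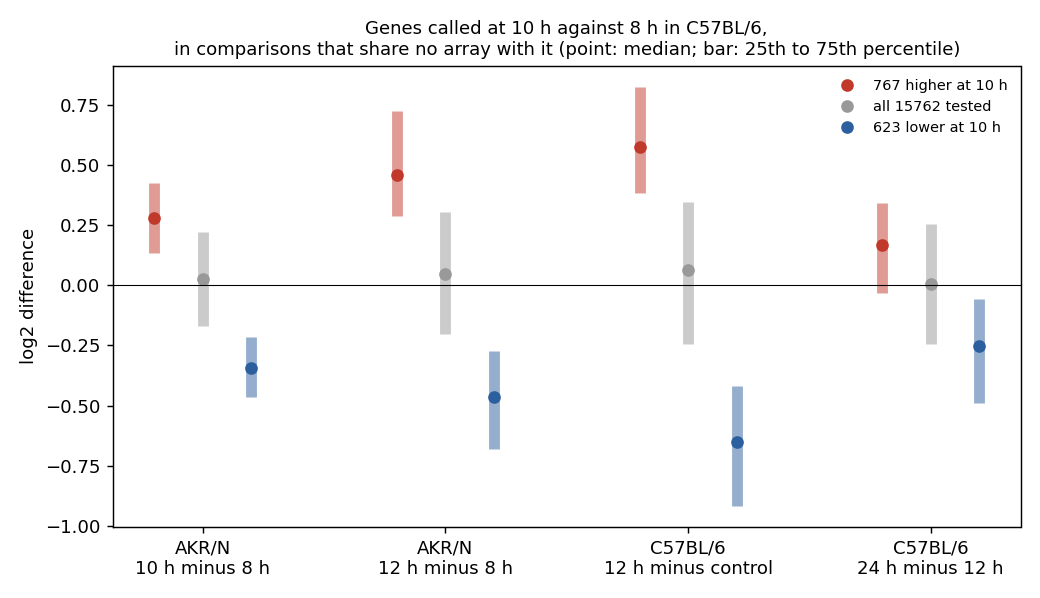
Median (point) and range from the 25th to the 75th percentile (bar) of the log2 difference in 4 comparisons that share no array with C57BL/6 10 h minus 8 h, for the 767 genes higher at 10 h (red), all 15762 genes (grey) and the 623 genes lower at 10 h (blue). The red medians run from 0.17 to 0.57, the blue from −0.65 to −0.25 and the grey from 0.01 to 0.06.

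Called genes also differed in length and place. The median genomic span, from first to last base of the gene in GRCm38.p6, was 34579 bases among risen, 10610 among fallen and 21417 among all genes. Among the 3933 genes with the shortest spans, up to 8565 bases, 2.64% rose and 6.76% fell, and among the 3933 with the longest, from 52138 bases, 6.76% rose and 2.11% fell. The RefSeq table placed 30 risen genes (3.91%) and 2 fallen genes (0.32%) on the X chromosome, against 3.27% of all; the 2 fallen ones were Ndufa1 and Spin2c. The higher 3'/5' ratios at 10 h stood beside these shares, and their part was not tested.

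A gene stands for 1 probe set here, the one with the highest mean. Of the 1390 called genes 769 had at least 1 other probe set past the filter; of these 1419 other probe sets, 1088 changed in the same direction and 630 by at least 0.5 times as much. Averaging all probe sets of a gene ended 40 of the 131 calls named here, among them Hspa8, Zfp703, Nr2f2, Neil3, Mars2, Ttll1, Csf1, Osmr, Jak2, Xbp1, Txnrd1, Nfe2l2, Sesn1, Mdm2, Btg2, Klf6, Smc4, Tead1, Hes1, Id2, Neat1 and Malat1. Median centring ended 42, among them Cdk1, Gins2, Trp53inp1, Dusp6, Jund, Klf10, Hbegf, Asns, Slc3a2, Atf5, Derl1, Edem1, Pgk1, Usp18, Oasl2, Clu, Fdx1, Kdr, Ctnna1, Ctnnb1, Stra8, Id4, Izumo1, Spata18 and Fscn3.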

How the data were processed

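The deposited values are probe-set signals, an intensity on a linear scale as the authors scaled it: once 2% of values were trimmed at each end, all 20 arrays had a mean of 125.001. Software and summary method: not given in the sources used here. Of 45101 probe sets, 64 controls were left out, and the chip annotation gave 1 gene for 34945, several for 932 and none for 9160. Signals were taken as log2(signal + 16), and the probe set with the highest mean stood for a gene. Genes were tested where the highest of 10 group means reached the 40th percentile (log2 5.07, signal 17.5). limma 3.58.1 in R 4.3.3 fitted 1 mean per group to all 20 arrays (residual degrees of freedom 10, prior 3.54), with Benjamini-Hochberg adjustment over 15762 genes. The code was tested on simulated data. Named genes were the 15 largest called changes per direction, up to 5 called members of each list by smallest adjusted p, and stated additions. The comparison, lists and named genes were chosen with earlier results of these data known. Promoters and spans came from RefSeq tables. The number of arrays limits the precision. Alternatives varied the pseudocount, filter, scaling, probe-set rule, variance model, arrays fitted and replicate block.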

Additional observations from a re-analysis of the deposited data

Results flagged for a closer look

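The change from 8 to 10 h differed between the strains, by a test of the difference itself, for Pard6b, where C57BL/6 exceeded AKR/N by 1.85 on the log2 scale. The test also passed for 1700104B16Rik, at −1.32, but this gene was at or near the filter on dim genes in AKR/N, where no fall could be read, so the value describes C57BL/6 only.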

How the results depend on the processing

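The count of 1390 moved by over 1.5 times under median centring (702), in the fit on the 10 C57BL/6 arrays (624) and in that on the 4 arrays alone (0), and lay between 71 and 451 without 1 array. It was 1371 and 1837 with pseudocounts of 1 and 64, 1156 and 1890 with no filter and a filter at the 60th percentile, 1341 with quantile normalization, 989 with the mean of a gene's probe sets, 1901 with limma-trend and 1051 on the 16 heated arrays. The signs of the 1390 were kept in every setting run except the mean of probe sets (1367 of 1383). The filters, limma-trend, the replicate block and fits on fewer groups left each C57BL/6 difference unchanged, so no sign could turn there. All other settings used the arrays on which the genes were called. Kept signs, here and among the named genes, are therefore no separate support. Of 131 named called genes, none reversed under any setting; 42 lost their call under median centring, 40 with the mean of probe sets, 131 with the 4 arrays alone and 110 without 8 h replicate 2.

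The AKR/N count of 1 became 126 with a pseudocount of 64, 44 with the stricter filter, 259 with limma-trend, 0 with the mean of probe sets, and 1 to 2 without 1 array. The strain difference gave 4 genes with the stricter filter and with all probe sets tested, 1 under median centring, with the replicate block and on the 16 heated arrays, and 0 to 1 without 1 array. For C57BL/6 12 h against 10 h the count was 3 with limma-trend and 0 to 14 without 1 array. Median centring gave 860 for AKR/N 12 h against 8 h and 995 for C57BL/6 24 h against 12 h; without 1 array these ran from 157 to 996 and from 206 to 1786, and C57BL/6 12 h against control from 1194 to 2588. Atf3, not called, turned to −0.484 without 10 h replicate 2 and was 0.962 without 10 h replicate 1. The causes were not tested.

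The replicate numbers did not pair the 8 and 10 h arrays (deviations correlated with r = −0.05), and the replicate block gave 1223 calls, with 1182 of them shared.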

Other observations

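Probe sets without a single gene in the annotation were fitted apart. Of 6195 past the filter, 43 (0.694%) were called between 10 and 8 h in C57BL/6, 25 higher and 18 lower. Among the genes tested, 8.82% were called. There the probe set with the highest mean stood for a gene and p-values were adjusted apart, so the shares are not directly comparable. Probe set 1455274_at had signals of 872 and 742 at 8 h and 2575 and 2194 at 10 h (1.54 ± 0.20, SE, adjusted p = 0.00284 by limma). Probe set 1440862_at had 197 and 196 at 8 h and 58.8 and 43.0 at 10 h (−1.68 ± 0.21, adjusted p = 0.00284).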
